A study of Mus musculus with 6 samples.

Results

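The genes described here are 10 members of the glucocorticoid response and its surroundings in mouse dendritic cells and skin wounds, out of 31053 genes counted in every library. They are the receptor Nr3c1, 7 genes that glucocorticoids are known to induce (Tsc22d3, Fkbp5, Zbtb16, Per1, Klf9, Sgk1 and Errfi1), and the metallothioneins Mt1 and Mt2. All 10 were found in all 6 libraries' gene tables. They were chosen by their known roles together with the CPM ratios between these libraries, which were already known, so every difference below is a description of the libraries and not a test of the choice.

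Bone marrow-derived dendritic cells (DCs) of wild-type C57BL/6 mice gave 3 droplet libraries: untreated DCs, DCs given vitamin D3 (VD3) at 1e-06 M for 24 h from culture day 7, and DCs in which Ndrg2 was knocked out with Cas9 and 3 guides (Ndrg2-KO DCs). Splinted skin wounds, explanted 10 days after wounding, gave 3 more: wounds under hydrogels seeded with control DCs, with Ndrg2-KO DCs, or under blank hydrogels. The study wounded both wild-type and diabetic db/db mice. The strain of the sequenced wounds was not named in the sources used here, though the paper ties their day to the healing curves of its wild-type wounds. Per the study's methods the mice were 6 weeks old, there were 5 per wound group, and the control DCs had gone through the same Cas9 procedure with 3 non-targeting guides, while their label calls them untreated. The cultured untreated and VD3 stimulated DCs are not described as having gone through a Cas9 procedure. Against them, the knockout and the procedure itself cannot be told apart in the Ndrg2-KO DCs. Each condition is 1 library, the Ndrg2-KO DCs are an edited pool and not a clone, and how the cells of the 5 mice were combined was not given in the sources used here.

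The kept cells numbered 7257 to 8825 per DC library and 1948 to 5681 per wound library, with medians of 12089 to 16316 and of 4415 to 10795 unique molecular identifiers (UMIs) per cell. Ndrg2 stood at 4.62 CPM (UMIs of the gene per 1000000 UMIs) in untreated, 1.42 in VD3 stimulated and 0.884 in Ndrg2-KO DCs. The count reads the 3′ end of a transcript, so it does not see the edit itself. Libraries shared 1 to 19 cell barcodes, at most 0.264% of the smaller of a pair. Of the DC markers, Itgax was at 146, 77.8 and 263 CPM and Flt3 at 2.69, 1.10 and 0.794 CPM in untreated, VD3 stimulated and Ndrg2-KO DCs. Every population below is named from marker genes as X-like, or by its cluster number where the markers did not settle a name.

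Glucocorticoids cross the cell membrane and bind the glucocorticoid receptor, which Nr3c1 encodes. The receptor waits in the cytoplasm in a complex with heat shock proteins and immunophilins, moves to the nucleus once bound, and turns on genes that carry a palindromic response element. Tsc22d3 (GILZ) restrains inflammatory signalling, Zbtb16 (PLZF) and Klf9 are zinc finger transcription factors, Per1 belongs to the circadian clock, Sgk1 is a kinase that acts on ion transport and survival, and Errfi1 holds back the EGF receptor. Fkbp5 is an immunophilin that lowers the receptor's affinity for its hormone, so its induction closes a feedback loop. Mt1 and Mt2 encode small cysteine-rich proteins that bind zinc and copper, and both glucocorticoids and metals induce them. In skin wounds, glucocorticoids are known to dampen inflammation and to slow repair.

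**Figure D1:**
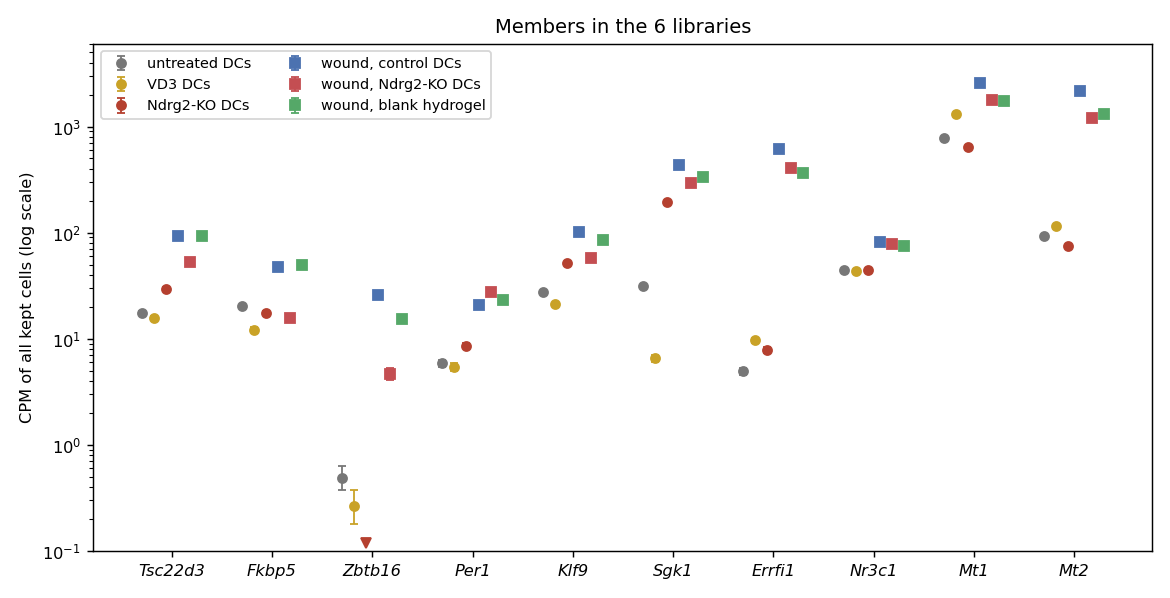
Level of each of the 10 genes in the 6 libraries (CPM of UMIs summed over all kept cells, log scale), with exact 95% Poisson intervals that cover counting error only and a triangle at the foot where no UMI was counted. Fkbp5 and Zbtb16 are lower in the wound with Ndrg2-KO DCs than in the other two wounds, Sgk1 spans 6.53 to 194 CPM over the DC libraries, and Nr3c1 spans 43.3 to 44.6 CPM over the DC libraries and 74.4 to 81.5 CPM over the wounds.

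Mt2 and Mt1 lie side by side on chromosome 8 of GRCm38, Mt2 at chr8:94172664-94173568 and Mt1 at chr8:94179082-94180327, both on the plus strand and 5513 bases apart. The stretches below, from the RefSeq promoter table (GRCm38.p6), are shown because these neighbours are the metal-responsive pair among the members. Each is 30 bases of the plus strand around a match in the 250 bases before a RefSeq start, from which the distances are counted and which need not be the annotated gene end given above. Per1 is the only other member with a match in this table. Capitals mark the core of a metal response element (TGCACNC or TGCGCNC, searched on both strands):
Mt2, 223 bases before the start, chr8:94172383-94172412: cagcatcgcctcTGCACCCggcccctcggg
Mt2, 128 bases before the start, chr8:94172478-94172507: tcgcagacccttTGCGCTCagctcctttgc
Mt2, 50 bases before the start, chr8:94172556-94172585: tggggggagggcGTGTGCAggctctgtccc
Mt1, 23 bases before the start, chr8:94179054-94179083: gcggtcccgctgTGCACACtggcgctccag
Per1, 69 bases before the start, chr11:69100071-69100100: ccaggcacatcgGCGCGCAtgtgcagcggg
The third and the fifth of these are matches on the minus strand. Of 32851 mouse promoters in the table, 21.4% held at least 1 such match and 1.26% held 3 or more, as Mt2 did.

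The full glucocorticoid response element (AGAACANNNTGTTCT, which reads the same on both strands) stood in 3 of the 32851 promoters, 0.00913%. Among the members it stood in 1 promoter, at 1 of the 6 listed starts of Sgk1, 189 bases before that start, with the element in capitals:
Sgk1, chr10:21993693-21993722, plus strand: atgcggaaAGAACAGAATGTTCTcggagat
The table held 17 starts of 8 of the members. A match to these letters is a description of the sequence and says nothing of whether the receptor binds there in these cells. Sgk1 spans chr10:21882184-21999903.

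In the wounds, Fkbp5 and Zbtb16 were the members that stood apart in the library with Ndrg2-KO DCs. Fkbp5 was at 47.9 CPM in the wound with control DCs (1422 UMIs, 95% interval 45.5 to 50.5), at 15.7 CPM with Ndrg2-KO DCs (771 UMIs, 14.6 to 16.8) and at 49.2 CPM under the blank hydrogel (1719 UMIs, 46.9 to 51.6). Zbtb16 was at 26.0, 4.69 and 15.3 CPM. The Ndrg2-KO DC wound was thus the lowest of the 3 for both genes, and the blank hydrogel lay within counting error of control DCs for Fkbp5 and between the other wounds for Zbtb16. Against control DCs the log2 ratio was -1.61 for Fkbp5 (95% interval -1.74 to -1.49), a 3.06-fold lower level, and -2.47 for Zbtb16 (-2.69 to -2.26), 5.54-fold lower. Against the blank hydrogel it was -1.65 for Fkbp5 and -1.71 for Zbtb16. Both comparisons share the Ndrg2-KO DC wound, so they are not independent.

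Tsc22d3 and Klf9 had the same order with smaller gaps. Tsc22d3 was at 92.3 CPM with control DCs, 53.1 with Ndrg2-KO DCs and 92.1 under the blank hydrogel, and Klf9 at 101, 57.2 and 84.3 CPM. The log2 ratios of Ndrg2-KO to control DCs were -0.80 and -0.83, under 2-fold. Mt1 was at 2551, 1767 and 1757 CPM and Mt2 at 2167, 1211 and 1299 CPM, so for the metallothioneins the control DC wound stood above both others. Sgk1 was at 436, 296 and 334 CPM and Errfi1 at 610, 410 and 366 CPM, again highest with control DCs. Per1 went the other way, at 20.8, 27.7 and 23.0 CPM.

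The receptor itself differed little between the wounds. Nr3c1 was at 81.5 CPM with control DCs, 77.9 with Ndrg2-KO DCs and 74.4 under the blank hydrogel, and the log2 ratio of Ndrg2-KO to control DCs was -0.07, with an interval of -0.14 to 0.01 that covers counting error only. The spread between animals is not in that interval.

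A gene was called here when its levels in a pair of libraries differed at least 2-fold, provided that the pair held 50 or more of its UMIs. By that rule 2 of the 10 members were called between the wounds with Ndrg2-KO and with control DCs, both lower, where 10.6% of 13358 genes were called in either direction and 6.22% were lower. The median log2 ratio was -0.69 over the members and -0.15 over all genes. Between the blank hydrogel and control DCs none of the 10 members was called (7.6% of genes), with medians of -0.33 and -0.04. Between Ndrg2-KO DCs and the blank hydrogel these 2 genes were called again (3.76% of 13449 genes, 2.01% lower), with medians of -0.14 and -0.10. With the mean of the cells' own CPM in place of the sum, the 3 counts were 5, 3 and 2 of 10. The members were picked with such values known, so these shares are printed only as the background.

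The mix of cells differed between the wounds, and in a sum over all cells a shift in the mix and a shift in the level per cell cannot be told apart. Neutrophil-like cells numbered 460 of 1948 with control DCs, 2899 of 5681 with Ndrg2-KO DCs and 1560 of 3403 under the blank hydrogel, and fibroblast-like cells 470, 462 and 323. Median depth per cell was 10795, 4415 and 5603 UMIs. The part of the mix and of depth in these values was not tested. The members are given next within each population.

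**Figure D2:**
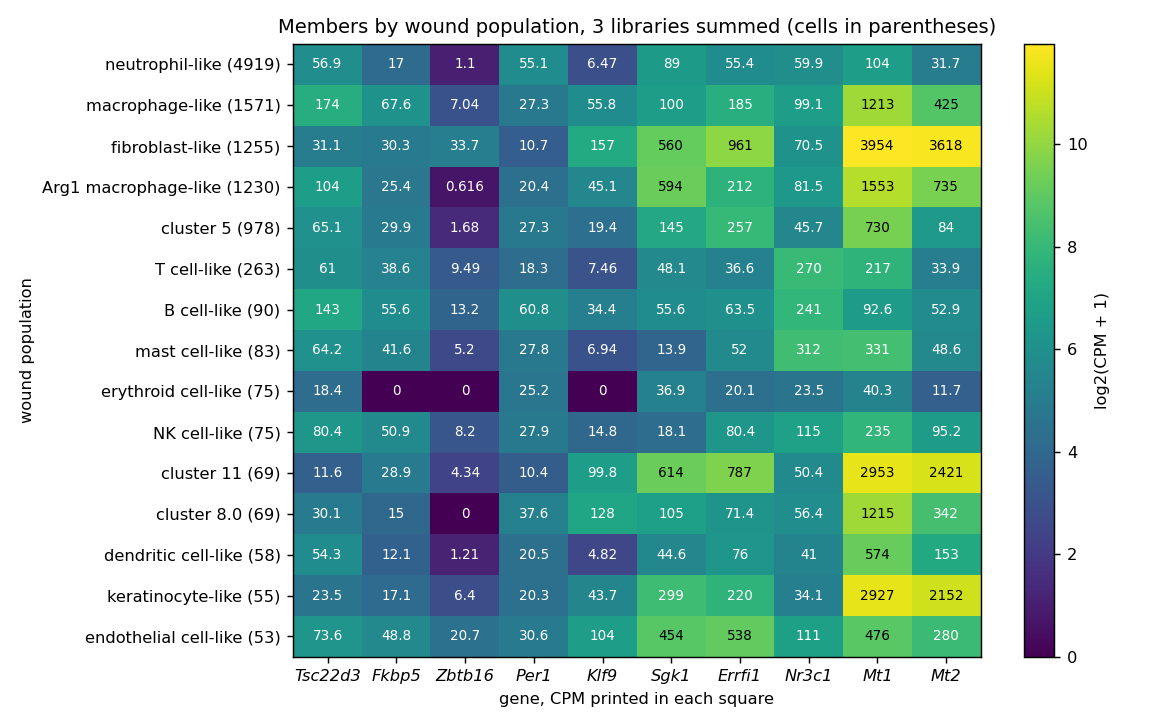
Level of the 10 genes (CPM of summed UMIs) in the wound populations with at least 50 cells, with the 3 wound libraries added together, the CPM printed in each square and the colour giving log2(CPM + 1). Fibroblast-like cells hold the highest Klf9, Errfi1, Mt1 and Mt2 levels, the macrophage-like cells the highest Tsc22d3 and Fkbp5 levels, and mast cell-like and T cell-like cells the highest Nr3c1 levels.

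Each member had its own place among the wound populations. Over the 8 populations with at least 20 cells in every wound library, 6 of the 10 members were highest in the same population in all 3 libraries. Tsc22d3 was highest in macrophage-like cells, Klf9, Errfi1, Mt1 and Mt2 in fibroblast-like cells, and Nr3c1 in T cell-like cells. The other 4 members changed their highest population from library to library. Sgk1 was highest in Arg1 macrophage-like cells in the control DC and blank hydrogel wounds and in fibroblast-like cells in the Ndrg2-KO DC wound.

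Nr3c1 was high in lymphoid cells. With the 3 wounds added together it was at 270 CPM in T cell-like cells (260 to 295 over the libraries), 241 in B cell-like cells, 115 in NK cell-like cells and 99.1 in macrophage-like cells (97.4 to 102). Neighbours in this order overlapped over the libraries down to the macrophage-like cells, which lay above the Arg1 macrophage-like cells at 81.5 CPM (68.5 to 91.4) without overlap. Fibroblast-like cells were at 70.5, neutrophil-like cells at 59.9 and cluster 5 at 45.7 CPM, each overlapping its neighbour. Cluster 5 is led by class II genes, Ear2, Ms4a4c and Cd209a, and was left unnamed because it held markers of monocytes and of dendritic cells. Among smaller populations the mast cell-like cells had 312 CPM of Nr3c1 (83 cells, 268 to 361), and the erythroid-like cells 23.5 CPM (75 cells, 12.8 to 39.4).

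Of the induced regulators, Tsc22d3 was highest in leukocytes and Klf9 in stromal cells. Tsc22d3 was at 174 CPM in macrophage-like, 143 in B cell-like and 104 in Arg1 macrophage-like cells, with ranges over the libraries that overlapped from each to the next. Of the 8 populations the fibroblast-like cells had the lowest level, 31.1 CPM (11.8 to 42.3), below the neutrophil-like cells at 56.9 CPM (45.5 to 88.1). Klf9 was at 157 CPM in fibroblast-like cells (143 to 187), 151 in the 23 pericyte or smooth muscle cell-like cells and 104 in endothelial cell-like cells, against 55.8 in macrophage-like cells (39.2 to 70.7) and 6.47 in neutrophil-like cells. The fibroblast-like level of Klf9 lay above that of every other population of the 8 in the order, without overlap with the next.

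Fkbp5 and Zbtb16 had no neighbours in their orders that were separated over the libraries. Fkbp5 was highest in macrophage-like cells, at 67.6 CPM with a range of 19.3 to 111 over the 3 wounds, and the lowest of the 8 was in neutrophil-like cells, at 17.0 CPM (8.07 to 28.8). No UMI of Fkbp5, Zbtb16 or Klf9 was counted in the 75 erythroid-like cells, where 3 UMIs would be 5.03 CPM. Zbtb16 was at 33.7 CPM in fibroblast-like cells, 20.7 in endothelial cell-like cells, 7.04 in macrophage-like cells and 0.616 in Arg1 macrophage-like cells.

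Per1, the clock gene, was at 60.8 CPM in B cell-like cells and 55.1 in neutrophil-like cells (43.2 to 64.8), and the neutrophil-like cells lay above the NK cell-like cells at 27.9 CPM without overlap. Of the 8 it was lowest in fibroblast-like cells, at 10.7 CPM (9.78 to 12.6). Sgk1 was at 594 CPM in Arg1 macrophage-like cells and 560 in fibroblast-like cells, whose ranges overlapped, and at 145 CPM in cluster 5, which was separated from both. Other populations rich in Sgk1 were the 53 endothelial cell-like cells at 454 CPM and cluster 11, a group of 69 dividing cells led by Anln, Pbk and Ube2c, at 614 CPM. Errfi1 was at 961 CPM in fibroblast-like cells, with a range of 955 to 967 over the 3 wounds, and at 257 CPM in cluster 5, the next of the 8 populations in the order. Smaller populations lay between them, with 707 CPM in the 23 pericyte or smooth muscle cell-like cells and 538 CPM in the 53 endothelial cell-like cells.

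Mt1 and Mt2 ran together over the populations. Mt1 was at 3954 CPM in fibroblast-like cells (3797 to 4224), 1553 in Arg1 macrophage-like cells (847 to 2008) and 1213 in macrophage-like cells, and Mt2 at 3618, 735 and 425 CPM in the same order. Keratinocyte-like cells had 2927 CPM of Mt1 and 2152 CPM of Mt2 in 55 cells, and the 69 cells of cluster 11 had 2953 and 2421 CPM. Neutrophil-like cells had 104 and 31.7 CPM. Shares of cells were read after each wound cell was drawn down to 1000 UMIs. Of the cells with an Mt2 UMI, 82.5%, 78.5% and 74.8% also had an Mt1 UMI (control DCs, Ndrg2-KO DCs, blank hydrogel). Of all cells, 44.3%, 28.2% and 30.7% had an Mt1 UMI. These shares pool the populations, whose levels of both genes differ widely, and the part of the mix of cells was not tested. The genes are near copies of each other, and how reads in shared sequence were assigned was not tested.

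The genes most like each member over the 15 wound populations with at least 50 cells were found by Pearson's r of log2(CPM + 10), among 9646 genes, and are given as a description with no p. For Mt1 the closest were Igsf8 and its neighbour Mt2, both at 0.94, and for Mt2 they were Mt1 and Nfix at 0.93. For Klf9 they were Pja2 (0.96), Rock2 (0.94) and Jkamp (0.94), for Nr3c1 Phf20l1 (0.95), Saraf (0.93) and Ppp1cc (0.92), and for Errfi1 Samd4b (0.93), Tpst1 and Slc39a14. Slc39a14 carries zinc into cells. For Sgk1 the list held the chemokine Cxcl1 (0.92), Rhou and Map3k20. For Tsc22d3 it held Dnm2 (0.91), Inpp5k and Rara, for Fkbp5 Ubap2l (0.92), Ly6e and Pknox1, for Zbtb16 Oxnad1 (0.92), B230354K17Rik and Npy1r, and for Per1 Eif5 (0.86), Kdm3a and Tra2a. Apart from Mt1 and Mt2, no member was among the 3 closest of another. The points share their libraries and differ widely in depth.

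**Figure D3:**
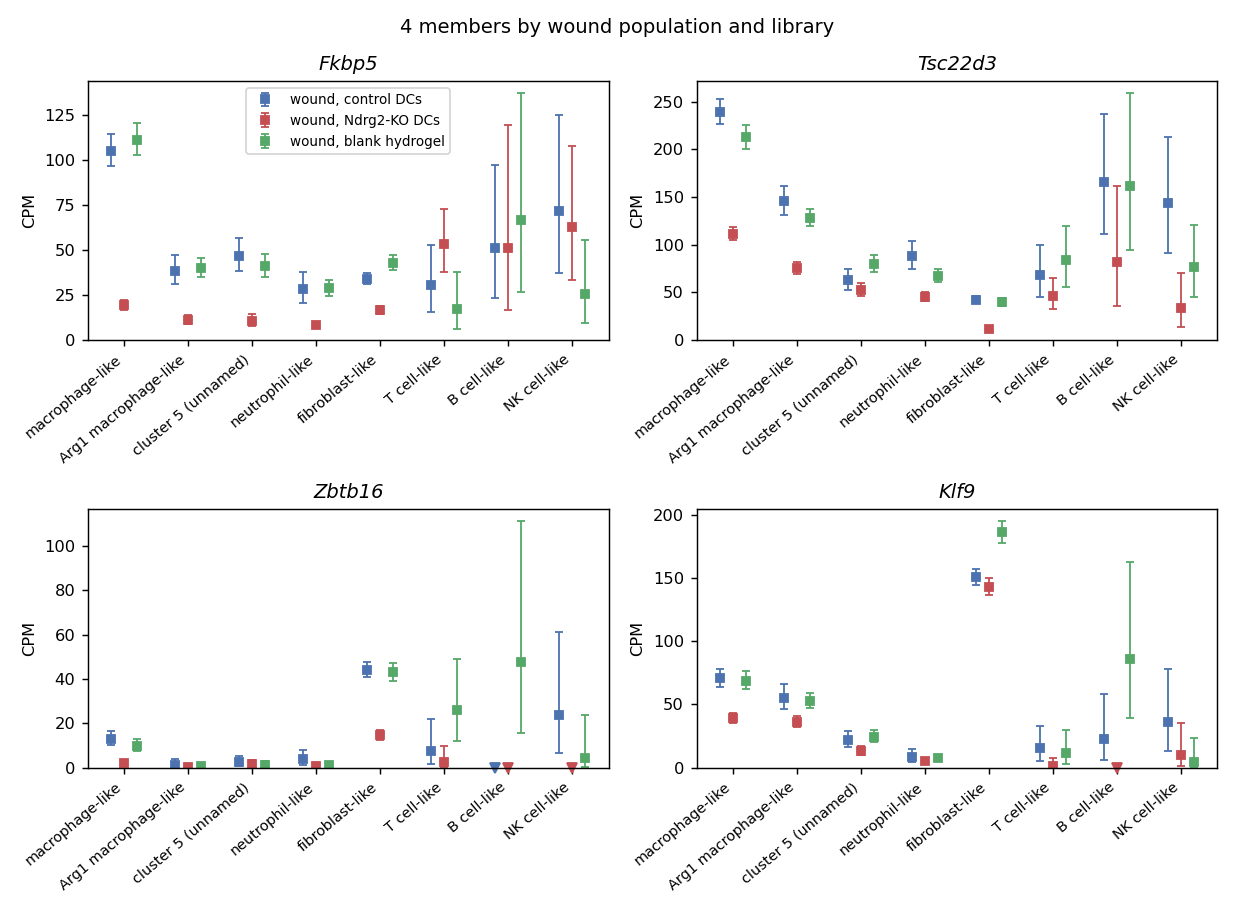
Level of Fkbp5, Tsc22d3, Zbtb16 and Klf9 (CPM of summed UMIs, linear scale from 0) in the 8 wound populations with at least 20 cells per library, by library, with exact 95% Poisson intervals for counting error and a triangle where no UMI was counted. In the macrophage-like, Arg1 macrophage-like, neutrophil-like and fibroblast-like cells and in cluster 5 the Fkbp5 level with Ndrg2-KO DCs lies below those with control DCs and the blank hydrogel.

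Within populations, Fkbp5 was lower in the wound with Ndrg2-KO DCs in macrophage-like, Arg1 macrophage-like, neutrophil-like and fibroblast-like cells and in cluster 5. In macrophage-like cells it was at 105 CPM with control DCs (563 UMIs, 408 cells), 19.3 with Ndrg2-KO DCs (175 UMIs, 699 cells) and 111 under the blank hydrogel (607 UMIs, 464 cells). The log2 ratio was -2.45 against control DCs (-2.70 to -2.20) and -2.53 against the blank hydrogel (-2.78 to -2.29), 5.46-fold and 5.78-fold lower. The control DC and blank hydrogel values differed by far less than either differed from the third.

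The other populations were as follows. In Arg1 macrophage-like cells Fkbp5 was at 38.3, 11.0 and 40.1 CPM (control DCs, Ndrg2-KO DCs, blank hydrogel), and in cluster 5 at 46.8, 10.7 and 40.9 CPM. In neutrophil-like cells it was at 28.1, 8.07 and 28.8 CPM, from 46, 79 and 170 UMIs, and in fibroblast-like cells at 34.1, 16.4 and 42.8 CPM. These 5 populations had log2 ratios to control DCs from -2.45 to -1.05. In T cell-like cells Fkbp5 was at 30.3, 53.3 and 17.3 CPM instead, with a log2 ratio to control DCs of 0.82 and an interval of -0.15 to 1.88. B cell-like cells were at 51.3, 51.2 and 66.7 CPM and NK cell-like cells at 71.6, 63.0 and 25.5 CPM, both too thin for a ratio. Mast cell-like cells, also too thin, were close to level at 39.3 CPM with control and 36.6 with Ndrg2-KO DCs, from 10 and 7 UMIs.

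So Fkbp5 was at least 2-fold lower in 5 of the 6 populations where it had enough UMIs against control DCs, and in 5 of 5 against the blank hydrogel, with medians of -1.80 and -1.86. Between the blank hydrogel and control DCs it passed 2-fold in none of 5, with a median of 0.07. Of 2293 genes with enough UMIs in the same 6 populations, 2 (0.0872%) were at least 2-fold lower with Ndrg2-KO than control DCs in 5 or more of them: Fkbp5 and Gm15564. Against the blank hydrogel 2 of 5375 genes (0.0372%) were so in 5 of 5, Fkbp5 and Gm47283. Gm15564 and Gm47283 are named after their values were seen. Populations of 1 library share their source and are not replicates of each other.

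The macrophage-like cells were made of 2 clusters, and both showed the gap. In the cluster led by Il10, Fcrls and Ccl12 the Fkbp5 level was 75.9 CPM with control DCs and 13.6 with Ndrg2-KO DCs, a log2 ratio of -2.48. In the cluster led by Cd209g, Cd209f and Cd209b, with Lyve1, it was 141 and 25.6 CPM, a log2 ratio of -2.46. Depth per macrophage-like cell was near equal, with medians of 12676, 11973 and 11800 UMIs. After each cell was drawn down to 1000 UMIs, which left out 14, 31 and 22 cells, 11.9% of macrophage-like cells with control DCs had an Fkbp5 UMI (exact 95% interval 8.90 to 15.5), 2.54% with Ndrg2-KO DCs (1.49 to 4.04) and 12.4% under the blank hydrogel (9.51 to 15.9). Without the draw the shares were 61.5%, 19.5% and 56.0%. Of the 63 erythroid-like cells of the Ndrg2-KO DC wound, with a median of 7121 UMIs, 0 had one. For so few cells 3 with a UMI would already be 4.76%, so they set no background level.

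**Figure D4:**
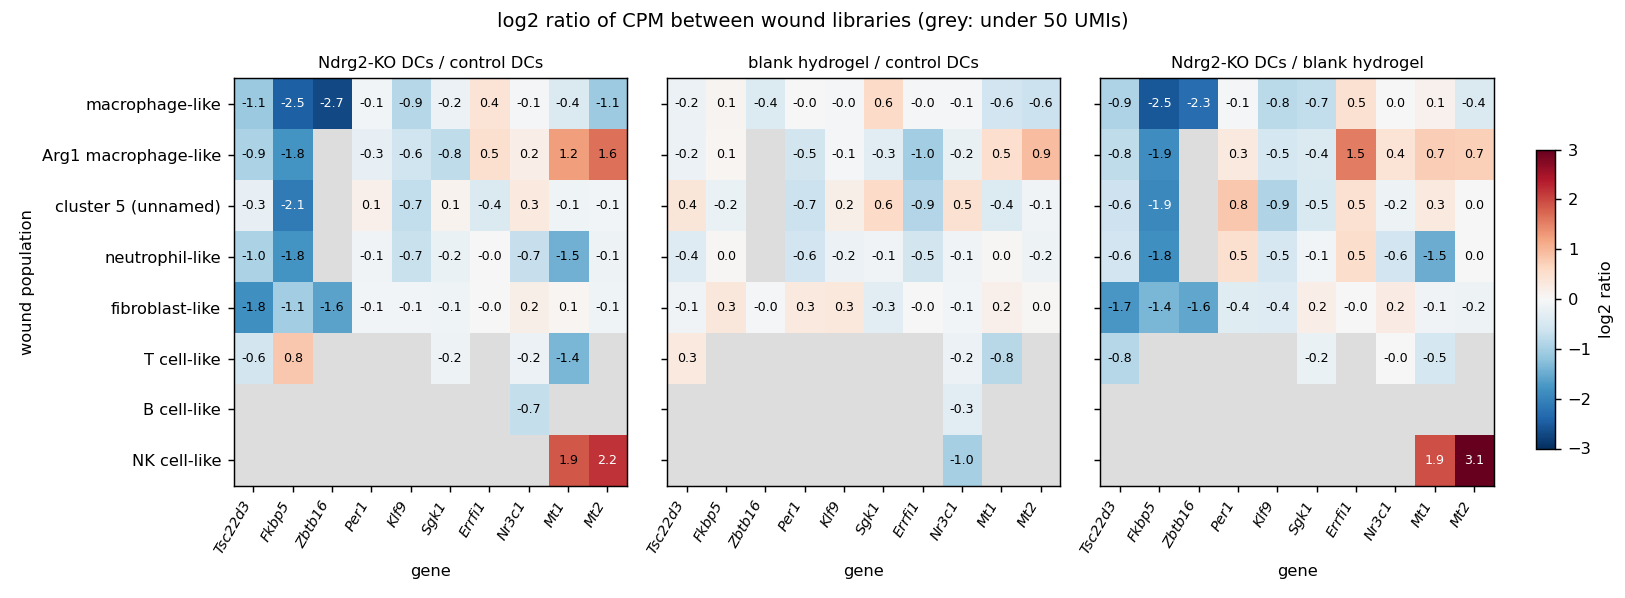
Log2 ratio of the CPM of the 10 members (columns) within 8 wound populations (lines) for the 3 pairs of wounds, printed in each square and coloured from blue (lower in the wound named first) to red (higher), with grey where the pair held under 50 UMIs. Fkbp5 is blue from the macrophage-like to the fibroblast-like cells in both comparisons of Ndrg2-KO DCs, Nr3c1 stays under 2-fold in those comparisons, and Mt1 and Mt2 hold both colours.

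Zbtb16 had enough UMIs in 2 populations. It was at 44.1, 14.6 and 42.9 CPM in fibroblast-like cells (control DCs, Ndrg2-KO DCs, blank hydrogel) and at 12.9, 1.98 and 9.72 CPM in macrophage-like cells, the last from 69, 18 and 53 UMIs. Both populations had the lowest level with Ndrg2-KO DCs, with log2 ratios to control DCs of -1.60 (-1.84 to -1.36) and -2.70 (-3.54 to -1.94) and to the blank hydrogel of -1.56 and -2.30.

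Tsc22d3 was lower past 2-fold in fibroblast-like cells, at 42.3, 11.8 and 39.4 CPM, and in macrophage-like cells, at 240, 111 and 213 CPM. The log2 ratios to control DCs were -1.84 (-2.10 to -1.58) and -1.11 (-1.23 to -0.99). Against the blank hydrogel the fibroblast-like cells were past 2-fold at -1.74 and the macrophage-like cells were not. In Arg1 macrophage-like cells Tsc22d3 was at 146, 75.4 and 128 CPM and in neutrophil-like cells at 88.1, 45.5 and 67.2 CPM, both at a log2 ratio of -0.95 to control DCs. Its median over 6 populations was -0.95. Klf9 had a median of -0.66 over 5 populations and passed 2-fold in none: it was at 70.7, 39.2 and 69.0 CPM in macrophage-like cells and at 151, 143 and 187 CPM in the fibroblast-like cells that hold most of it.

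With Ndrg2-KO DCs, Sgk1, Errfi1 and Per1 stayed under 2-fold against control DCs in every population with enough UMIs, with medians of -0.16, -0.01 and -0.07. In fibroblast-like cells Errfi1 was at 967, 955 and 957 CPM and Sgk1 at 610, 559 and 485 CPM. Sgk1 in Arg1 macrophage-like cells was at 823, 483 and 654 CPM. Errfi1 there was at 209, 291 and 101 CPM, which put Ndrg2-KO DCs 1.53 above the blank hydrogel and the blank hydrogel 1.05 below control DCs on the log2 scale. Nr3c1 with Ndrg2-KO DCs was under 2-fold against control DCs in all 8 populations with enough UMIs, with a median of -0.03. NK cell-like cells fell short of 50 UMIs, with 179 CPM of Nr3c1 with control and 92.1 with Ndrg2-KO DCs. It was at 102, 98.4 and 97.4 CPM in macrophage-like cells, and at 314 CPM in mast cell-like cells both with control and with Ndrg2-KO DCs. In neutrophil-like cells Nr3c1 was at 78.9, 48.8 and 72.9 CPM, 1.62-fold lower with Ndrg2-KO than control DCs, and in B cell-like cells at 285, 174 and 229 CPM, 1.64-fold lower.

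The metallothioneins went in different directions in different populations. In Arg1 macrophage-like cells Mt1 was at 847, 2008 and 1209 CPM and Mt2 at 309, 968 and 587 CPM (control DCs, Ndrg2-KO DCs, blank hydrogel), so both were highest with Ndrg2-KO DCs, with log2 ratios of 1.24 (1.18 to 1.31) and 1.65 (1.54 to 1.76) to control DCs. In macrophage-like cells Mt1 was at 1535, 1128 and 1037 CPM and Mt2 at 647, 303 and 412 CPM, highest with control DCs. The Mt2 gap lay in the macrophage-like cluster led by Cd209g, at 1134, 381 and 715 CPM, while the larger one led by Il10 was nearly level at 251, 234 and 276 CPM. Fibroblast-like cells were nearly level, at 3797, 3931 and 4224 CPM of Mt1. In neutrophil-like cells Mt1 was at 160, 58.4 and 165 CPM, a log2 ratio of -1.45 to control DCs. Smaller populations were also split, with Mt1 in T cell-like cells at 366, 142 and 204 CPM and in NK cell-like cells at 125, 456 and 119 CPM, the latter from 21, 94 and 28 UMIs. In the largest T cell-like cluster, with 42 of the 56 control DC cells and 128 of the 153 Ndrg2-KO DC cells, Mt1 was at 141 and 56.8 CPM, so the few remaining control DC cells held much of the 366 CPM.

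Counted over members and populations, 57 of 90 pairs had enough UMIs between Ndrg2-KO and control DCs, of which 4 were at least 2-fold higher and 13 lower, where 5.67% of 45994 pairs over all genes were called and 1.89% were lower. The 4 higher pairs were all of Mt1 and Mt2. Between Ndrg2-KO DCs and the blank hydrogel 53 pairs had enough UMIs, with 3 higher and 9 lower (4.54% of 46572, 2.26% lower). Between the blank hydrogel and control DCs 52 had enough, with 0 higher and 2 lower (3.91% of 42502), Errfi1 in Arg1 macrophage-like cells and Nr3c1 in NK cell-like cells.

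Transcripts of other cell types also differed between the wounds in these populations. In the 5 populations other than neutrophils with the most cells, the 6 neutrophil markers together made up a median of 0.0230% of UMIs with control DCs (0.00379 to 0.214), 0.349% with Ndrg2-KO DCs (0.0206 to 0.862) and 0.140% under the blank hydrogel (0.0109 to 0.360). The 5 erythroid markers made up 0.202%, 0.347% and 0.118%. S100a8, S100a9 and Hbb-bt were the 3 of 2293 genes at least 2-fold higher with Ndrg2-KO than control DCs in 5 or more of 6 populations, and are named after their values were seen. The part of such transcripts in the member values was not tested.

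Genes around the members were taken from 4 lists. Of 14 other glucocorticoid-induced genes with enough UMIs in the wounds, 1 was at least 2-fold higher with Ndrg2-KO than control DCs (Nfkbia, an inhibitor of NF-kB) and 1 lower (Pdk4, a kinase that holds back pyruvate oxidation), with a median log2 ratio of -0.05 against -0.15 over all genes, of which 10.6% were called. In Arg1 macrophage-like cells 4 of 11 of them were higher (Nfkbia, Il1r2, Irak3 and Bcl6) and 0 lower, where 7.66% of genes were called, and in macrophage-like cells 1 of 13 was higher (Il1r2) and 0 lower, where 3.99% were. The blank hydrogel wound shared part of this against control DCs, with 3 of 12 higher in Arg1 macrophage-like cells (Il1r2, Cd163 and Bcl6, where 3.48% of genes were called) and Il1r2 again higher in macrophage-like cells (2.21%). Between Ndrg2-KO DCs and the blank hydrogel none was higher in either, with Cd163 and Sesn1 lower in Arg1 macrophage-like cells (5.31%) and none lower in macrophage-like cells (3.04%). Over all pairs of a gene of this list and a population, 5 of 71 were higher and 2 lower with Ndrg2-KO than control DCs (the latter Cd163 in fibroblast-like and Zfp36 in T cell-like cells), where 5.67% of pairs over all genes were called. With the blank hydrogel 7 of 72 were higher and 1 lower against control DCs (3.91%), and between Ndrg2-KO DCs and the blank hydrogel 0 of 70 were higher and 8 lower (4.54%).

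Of 11 receptor chaperones, cofactors and steroid genes, Nr3c2, the mineralocorticoid receptor, was lower with Ndrg2-KO DCs and also with the blank hydrogel than with control DCs, from 27, 24 and 41 UMIs. Over all genes 10.6% and 7.6% were called in these comparisons. Between Ndrg2-KO DCs and the blank hydrogel none was called over all cells (3.76% of genes). Within populations, 2 of 59 pairs were higher and 2 lower in that comparison (4.54% of pairs over all genes called). Hsd11b1 was higher in Arg1 macrophage-like cells and cluster 5 and lower in fibroblast-like cells. Hsp90aa1 was lower in B cell-like cells, where 9.84% of genes were. Within populations 1 of 64 pairs was higher and 4 lower with Ndrg2-KO than control DCs. Over all genes 5.67% of pairs were called in that comparison and 1.89% were lower. Hsd11b1, the enzyme that regenerates active glucocorticoid from its inactive form, was higher in Arg1 macrophage-like and lower in fibroblast-like cells. Hsp90aa1 and Ncor1 were lower in B cell-like cells, where 14.5% of genes were lower. Ptges3 was lower in NK cell-like cells, where 6.43% of genes were. With the blank hydrogel Hsp90aa1, Hsp90ab1 and Ptges3 were higher than with control DCs in neutrophil-like cells, where 7.27% of genes were higher. These were 3 of 56 pairs, and 0 were lower (3.91% of pairs over all genes called). Of the 5 metal handling genes none was called between Ndrg2-KO and control DCs (10.6% of genes). Mt3, another metallothionein, was at 1.11, 0.914 and 3.55 CPM (control DCs, Ndrg2-KO DCs, blank hydrogel). It was thus called in both comparisons of the blank hydrogel, against control DCs (7.6% of genes) and against Ndrg2-KO DCs (3.76%).

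The 9 immediate early and heat shock genes, which tissue dissociation is known to raise, were read in the same way. Over all cells none passed 2-fold between Ndrg2-KO and control DCs (10.6% of genes called), with a median of -0.35. Hspa1a and Hspa1b were lower with the blank hydrogel than with control DCs (7.6% called), with a median of -0.69 over the 9. Between Ndrg2-KO DCs and the blank hydrogel none passed 2-fold (3.76% called), with a median of 0.22. Within populations 6 of 58 pairs were higher and 7 lower with Ndrg2-KO than control DCs, where 5.67% of pairs over all genes were called. Hspa1a and Hspa1b were higher in neutrophil-like cells and cluster 5, Hspa1a in T cell-like cells and Fosb in mast cell-like cells. Fosb was lower in Arg1 macrophage-like cells, and 6 of 7 genes were lower in B cell-like cells (Fos, Fosb, Junb, Egr1, Hspa1a and Hspa1b), where 14.5% of 581 genes were. With the blank hydrogel 5 of 56 pairs were higher and 8 lower against control DCs, where 3.91% of pairs over all genes were called. The lower pairs were in Arg1 macrophage-like cells (Fosb, Egr1 and Hspa1a), macrophage-like cells (Hspa1a and Hspa1b) and B cell-like cells (Egr1, Hspa1a and Hspa1b, where 8.88% of genes were lower). Between Ndrg2-KO DCs and the blank hydrogel 4 of 56 were higher, 3 of them in Arg1 macrophage-like cells (Egr1, Hspa1a and Hspa1b), and 6 lower (4.54% of pairs over all genes called). The part of dissociation in the member values was not tested.

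In the DC cultures, Sgk1 differed at least 2-fold in all 3 comparisons. It was at 31.2 CPM in untreated DCs (4131 UMIs, 30.2 to 32.1), 6.53 in VD3 stimulated DCs (760 UMIs, 6.07 to 7.01) and 194 in Ndrg2-KO DCs (27902 UMIs, 192 to 197). VD3 stimulated DCs were thus lowest and Ndrg2-KO DCs highest, with log2 ratios to untreated DCs of -2.26 (-2.37 to -2.14) and 2.64 (2.59 to 2.69), or 4.77-fold lower and 6.23-fold higher. Between the treated cultures the log2 ratio was 4.90.

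Klf9 was at 27.4 CPM in untreated, 21.1 in VD3 stimulated and 52.2 in Ndrg2-KO DCs, and Tsc22d3 at 17.6, 15.7 and 29.6 CPM, so both were highest in Ndrg2-KO DCs, 1.91-fold and 1.68-fold above untreated DCs (0.93 and 0.75 on the log2 scale). Fkbp5 was at 20.2, 12.2 and 17.7 CPM, lowest with VD3 at -0.73. Errfi1 was at 4.92, 9.63 and 7.86 CPM and Per1 at 5.86, 5.43 and 8.60 CPM. Zbtb16 was rare: 65 UMIs in untreated DCs, 31 in VD3 stimulated DCs and 0 in Ndrg2-KO DCs, where 3 UMIs would be 0.0209 CPM. Nr3c1 was at 44.6, 43.3 and 44.4 CPM, with log2 ratios to untreated DCs of -0.04 and -0.01.

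Mt1 was at 785, 1306 and 646 CPM and Mt2 at 92.8, 116 and 74.9 CPM, both highest with VD3 and lowest in Ndrg2-KO DCs. Between Ndrg2-KO and VD3 stimulated DCs Mt1 passed 2-fold at a log2 ratio of -1.02. Of cells with an Mt2 UMI after the draw to 2000 UMIs, 87.9%, 94.7% and 77.3% also had an Mt1 UMI, against 68.4%, 78.5% and 62.4% of all cells. These shares also pool all clusters of a culture.

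By the same 2-fold rule 1 of 10 members was called between VD3 stimulated and untreated DCs (11.6% of 13113 genes), 2 of 10 between Ndrg2-KO and untreated DCs (19.5% of 13329) and 3 of 9 between Ndrg2-KO and VD3 stimulated DCs (22.2% of 13235). The medians over the members were -0.14, 0.27 and 0.53, and over all genes -0.08, -0.06 and 0. The first 2 of these comparisons share the untreated library and the third shares both treated ones.

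The DC clusters were mostly of 1 library each, so cluster and library cannot be told apart for many of them. Sgk1 was at 286 CPM in cluster 0, in which 3655 of 3659 cells were Ndrg2-KO. That cluster was higher for 5 of 8 premature DC markers and was named premature DC-like by the marker rule. Arg1, Mamdc2, Mmp13, Fabp4 and Apoe were among its leading genes. Sgk1 was also high in other Ndrg2-KO clusters, the cycling cluster at 150 CPM and the unnamed DC clusters 12 and 11 at 156 and 90.7 CPM. In the neutrophil-like cluster it was at 145 CPM in 927 untreated, 27.3 in 1118 VD3 stimulated and 152 in 31 Ndrg2-KO cells. Mature DC-like cells lay mostly in a separate cluster for each culture: cluster 2 for untreated, cluster 1 for VD3 stimulated and cluster 5 for Ndrg2-KO cells. Sgk1 was at 1.22, 0.324 and 19.6 CPM there, so the Ndrg2-KO cells were highest, with a log2 ratio to untreated cells between 3.58 and 4.45 (95% interval), from 461 and 50 UMIs. Sgk1 was among the 10 leading genes of cluster 0, though it was kept out of the clustering.

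Between these 3 mature DC-like clusters, Mt1 was at 1185, 1588 and 441 CPM and Mt2 at 179, 191 and 70.7 CPM in untreated, VD3 stimulated and Ndrg2-KO cells, and both passed 2-fold for Ndrg2-KO against untreated (-1.43 and -1.34). Per1 was at 4.87, 6.66 and 12.9 CPM and passed it at 1.40. Cluster 2 also held 166 Ndrg2-KO cells beside its 2603 untreated ones, and in it Per1 was at 4.87 CPM in untreated and 4.6 in Ndrg2-KO cells, Mt1 at 1185 and 725 CPM, Mt2 at 179 and 121 CPM and Sgk1 at 1.22 and 6.57 CPM. There Mt1 and Mt2 were under 2-fold apart and Per1 was close to level, with few Per1 and Sgk1 UMIs in the Ndrg2-KO cells. Between the clusters, of 10 members 2 were higher and 3 lower (15.6% of genes called), and for VD3 stimulated against untreated cells 0 were higher and 2 lower (8.09%), Zbtb16 and Sgk1. Zbtb16 was at 1.27 CPM in untreated mature DC-like cells, from 52 of the 65 UMIs in that culture. Nr3c1 was level, and Fkbp5 was low in all of these clusters, at 5.43, 4.17 and 8.08 CPM.

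In the cycling clusters Fkbp5 was higher and close to equal, at 31.9 CPM in untreated and 30.5 in Ndrg2-KO cells. Klf9 was at 26.8 and 56.3 CPM and Sgk1 at 33.3 and 150 CPM there, the 2 of 9 members past 2-fold (18.1% of genes), both higher in Ndrg2-KO cells. These values come from cluster 6 for untreated and cluster 10 for Ndrg2-KO cells. Within cluster 6, with 1673 untreated and 129 Ndrg2-KO cells, Sgk1 was at 33.3 and 33.7 CPM and Klf9 at 26.8 and 13 CPM, so neither was 2-fold higher in the Ndrg2-KO cells there. Cluster 3, a cycling cluster of lower depth, differed from this for Sgk1, which was at 16.3 CPM in 563 untreated, 4.72 in 1454 VD3 stimulated and 146 in 112 Ndrg2-KO cells, from 82 UMIs in all. Klf9 was lowest in the Ndrg2-KO cells there, at 7.90 CPM, from 74 UMIs in all and very few in those cells. The 134 basophil-like cells, nearly all untreated or VD3 stimulated, had the highest Zbtb16 level of any DC cluster, 6.84 CPM, and 22.0 CPM of Per1.

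The same 4 lists were read in the cultures. Of 13 other glucocorticoid-induced genes, 1 was at least 2-fold higher with VD3 (Zfp36, which degrades inflammatory messages) and 3 lower (Anxa1, Cd163 and Bcl6), with a median of 0.30, where 11.6% of all genes were called. In Ndrg2-KO against untreated DCs 4 were higher (Per2, Anxa1, Txnip and Sesn1) and 2 lower (Dusp1 and Il1r2), with a median of -0.07, where 19.5% were. Between Ndrg2-KO and VD3 stimulated DCs 4 were higher (Per2, Anxa1, Txnip and Cd163) and 5 lower (Dusp1, Cebpd, Zfp36, Nfkbia and Il1r2), with a median of 0.17, where 22.2% were. No receptor chaperone or cofactor passed 2-fold in any of the 3. Of the metal handling genes the zinc importers Slc39a10 and Slc39a14 were lower with VD3 than in untreated DCs, and none was called in the other comparisons. The immediate early and heat shock genes were split in Ndrg2-KO DCs, with Atf3, Hspa1a and Hspa1b higher and Fos, Fosb and Egr1 lower than in untreated DCs. Against VD3 stimulated DCs 1 of 9 was higher (Hspa1b) and 5 were lower (Fos, Fosb, Jun, Junb and Egr1), and between VD3 stimulated and untreated DCs none was called.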

How the data were processed

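Single-cell RNA was measured in 6 droplet libraries (10X Genomics), 1 per condition. The deposited values are UMI counts per gene and barcode. The authors made them with Cell Ranger 3.1.0 (DC libraries) and 6.0.0 (wound libraries) per the file headers, and did not normalize them. The paper names mm10 as the genome and the submitters' notes name mm9. A cell was kept if it had 300 or more genes, fewer than 100000 UMIs and a mitochondrial share below 10%. This left 132574308 UMIs in untreated DCs, 116461484 with VD3, 143627482 in Ndrg2-KO DCs, 29675507 in the control DC wound, 49240341 in the Ndrg2-KO DC wound and 34905741 in the blank hydrogel wound.

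UMIs were summed per gene over a library or population and scaled to 1000000 (CPM). With 1 library per group no test was made. Intervals are exact (Poisson for CPM, conditional binomial for ratios, Clopper-Pearson for shares) at 95% and cover counting error only. Ratios were read where the 2 sums held at least 50 UMIs and, within populations, at least 20 cells per library. Cells were clustered with Seurat 5.3.0 in R 4.3.3 (10000 UMIs per cell, 2000 variable genes without the members, 15 components, 15 neighbours, resolution 0.5). Wound clusters holding 3 or more markers of a second list were clustered again, a step chosen after seeing the data. Scrublet, in scanpy 1.11.5, marked at most 0.873% of cells at its automatic threshold, and 0 in VD3 stimulated DCs and the blank hydrogel wound. Doublets were kept, and their true share was not established. An alternative run, called without doublets below, left out the 6% of cells with the highest scores. Genes were matched to GENCODE M21 (30934 of 31053). Sums, ratios and intervals were computed in Python 3.11.15 (SciPy 1.17.1, NumPy 2.4.6, pandas 2.3.3).

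The members and lists were chosen with earlier results of these data known. Genes named are the members, the lists, and the 3 genes most like each member. The intervals were run on simulated data with 200 changed genes, drawn from the Poisson model that the intervals assume. No spread between cells, animals or cultures was simulated. The shares below thus check the computation only and are not error rates for these libraries. The intervals held 94.5% of the true ratios in both Ndrg2-KO against untreated DCs (13330 genes) and Ndrg2-KO against control DC wounds (13428 genes). Within fibroblast-like and neutrophil-like cells of the same wounds (10997 and 5533 genes) they held 95.5% and 96%, and 0.0741% and 1.97% of unchanged genes were called, against 0.0228% and 0.0605% between libraries.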

Additional observations from a re-analysis of the deposited data

Results flagged for a closer look

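Mt1 and Mt2 differed from control DCs or the blank hydrogel in opposite directions in different wound populations of the library with Ndrg2-KO DCs. The difference between populations was not tested, since each wound is 1 library. Against control DCs, Mt1 was at a log2 ratio of 1.86 in NK cell-like cells (26 and 23 cells) and -2.69 in mast cell-like cells (35 and 29 cells), 4.55 apart. Mt2 was at 2.16 in NK cell-like cells and -1.10 in macrophage-like cells, 3.26 apart. The latter came from 1 of the 2 macrophage-like clusters, at -1.57 in the one led by Cd209g and -0.10 in the larger one led by Il10. Against the blank hydrogel, Mt1 was at 1.94 in NK cell-like cells and -1.49 in neutrophil-like cells, 3.43 apart. The NK cell-like values rest on 21 to 94 UMIs of Mt1 and 6 to 44 of Mt2.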

How the results depend on the processing

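No paired analysis was possible because each condition is 1 library and carries no replicate number. For the same reason no replicate could be left out, and spread between cultures or animals is in no interval. Of 126 counts recomputed under the alternatives, 101 stayed within 1.5 times and 25 moved. Between libraries, members called in VD3 against untreated DCs (1) became 2 with median-ratio scaling, with totals without mitochondrial and ribosomal protein genes and with the mean over cells, and 5 at 1.5-fold. For Ndrg2-KO against untreated DCs (2) they became 1 at 200 UMIs and 5 at 1.5-fold, and against VD3 stimulated DCs (3) 6 at 1.5-fold. For wounds with Ndrg2-KO against control DCs (2) they became 5 with the mean over cells and at 1.5-fold, and for blank hydrogel against control DCs (0) 3 with both. Within populations, called pairs for Ndrg2-KO against control DCs (17) became 10 at 200 UMIs and 27 at 1.5-fold. Those for blank hydrogel against control DCs (2) became 1 at 200 UMIs, with the mean over cells and without mitochondrial and ribosomal genes in the total, 7 at 1.5-fold and without doublets, 9 at resolution 1.0, 4 with 30 components and 5 with no second clustering. Those for Ndrg2-KO DCs against blank hydrogel (12) became 22 at 1.5-fold, 23 at resolution 1.0 and 19 with 300 UMIs in place of 300 genes. Populations with Fkbp5 at least 2-fold lower, Ndrg2-KO against control DCs, were 4 to 6 except at 200 UMIs, where they were 2 of 2, fewer being counted there. The cause of the other moves was not tested. Of 412 single values, levels and ratios of the members, 229 stayed within their counting interval and 183 moved outside it. No called member ratio between libraries changed sign under any alternative run.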
